A study of Mus musculus with 5 samples.

Results

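The regions described here are EBF1 binding sites of the class YmA-ind that lie in the interior of genes. The list holds 7494 EBF1 sites from 1 ChIP-seq library of mouse pro-B cells, each 300 bp wide, and 4055 of them carry the label YmA-ind. Members were chosen by that deposited class label and by place: the centre of the site had to fall inside the span of any RefSeq gene on GRCm38 and 1000 bp or more from the end of every gene. This left 2248 sites on 20 chromosomes. The term interior is used below for all positions that meet the same rule of place.

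The cells were Ebf1-/- cells from fetal liver, the blood-forming organ of the embryo. They carry no intact copy of Ebf1 and had been transduced with wild-type EBF1. Chromatin was crosslinked, sheared and precipitated with an antibody against EBF1. The Ebf1-/- genotype is shared by the libraries with the EBF1 form YmA, by the BRG1 ChIP and by the inputs, none of which was analysed here. Each of the 5 groups holds 1 library, so no value below has a replicate and no test between groups was possible. What drove the transduced EBF1, and how each site got its class, was not given in the sources used here. YmA-ind, CTD-ind and YmA-dep are therefore used as labels. The list holds sites and no expression values, so the pro-B identity of the cells could not be checked against marker genes. It gives no height or score either, and both the strength of each site and the read depth are unknown. Exon boundaries were not used here, so no site is called exonic or intronic.

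EBF1 is a transcription factor of early B-cell development that binds DNA as a dimer, at a palindrome of a TCCC half-site and its mirror GGGA. It can bind closed chromatin and open it, which is called pioneering, and the series was made to ask about the part of phase separation in this. Sites inside genes and away from promoters are often distal regulatory elements such as enhancers, which can act on the gene that holds them or on a neighbour. A position inside a gene therefore names a host, not a target.

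The members' bases can be read where a member reaches into a RefSeq window around an annotated transcript start, 250 bases before to 50 after, since many genes have further starts inside their span. Of the members, 27 overlapped 28 such windows, by 9 to 275 bp. The full palindrome TCCCNNGGGA stood in the shared bases of 2 members, and its core CCCNNGGG in those of 8, the same 2 among them. The stretches shown are those of the 5 members with either motif in the bases before the start; in the other 3 the match reached or followed it. They were copied from RefSeq (GRCm38.p6), run 5′ to 3′ towards the start on the strand of the gene, and capitals mark the motif.
Ank2, chr3:126998488-126998702, minus strand: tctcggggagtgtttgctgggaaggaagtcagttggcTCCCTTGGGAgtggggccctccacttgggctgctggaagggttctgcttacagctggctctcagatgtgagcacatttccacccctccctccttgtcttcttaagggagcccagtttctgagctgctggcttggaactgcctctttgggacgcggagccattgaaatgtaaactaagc
Spn, chr7:127137824-127138006, minus strand: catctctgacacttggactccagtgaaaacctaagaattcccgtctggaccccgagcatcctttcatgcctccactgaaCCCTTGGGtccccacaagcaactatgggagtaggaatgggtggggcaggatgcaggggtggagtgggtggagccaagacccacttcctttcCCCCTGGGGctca
Taf11, chr17:27907745-27907943, minus strand: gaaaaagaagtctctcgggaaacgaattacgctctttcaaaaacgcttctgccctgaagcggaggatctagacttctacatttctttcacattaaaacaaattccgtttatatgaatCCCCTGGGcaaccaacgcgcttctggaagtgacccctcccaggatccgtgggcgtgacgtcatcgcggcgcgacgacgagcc
Cep70, chr9:99243128-99243340, plus strand: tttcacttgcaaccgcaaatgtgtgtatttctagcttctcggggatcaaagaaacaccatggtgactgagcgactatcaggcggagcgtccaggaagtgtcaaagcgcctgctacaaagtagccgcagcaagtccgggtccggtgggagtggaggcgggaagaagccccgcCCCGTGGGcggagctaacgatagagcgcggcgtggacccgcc
Sh2d6, chr6:72520037-72520286, minus strand: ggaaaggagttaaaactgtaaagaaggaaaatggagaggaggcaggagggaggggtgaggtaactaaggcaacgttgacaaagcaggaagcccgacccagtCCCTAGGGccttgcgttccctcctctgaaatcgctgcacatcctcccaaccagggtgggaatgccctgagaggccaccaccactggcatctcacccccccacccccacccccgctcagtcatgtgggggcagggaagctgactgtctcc

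The Ank2 stretch, from the gene of the membrane adaptor ankyrin-B, held the full palindrome, centred 23.5 bp from the centre of the site. The other stretches held the core alone. At Spn, the gene of the leukocyte surface sialoglycoprotein CD43, it had 3 copies in all, 2 of them overlapping each other. The nearest copy lay 23.5 bp from the site centre. At Taf11, the gene of a subunit of the general transcription factor TFIID, the core lay 29.5 bp away. At Cep70, which encodes a centrosomal protein, the distance was 25.5 bp, and at Sh2d6, the gene of an SH2-domain protein, 6.5 bp. In each of these 5 sites the nearest motif was thus within 30 bp of the centre. For the other members with a motif no distance was measured.

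Both motifs are palindromes, so a match reads on both strands, and every match to TCCCNNGGGA is also one to CCCNNGGG. Among all 32851 windows of this length, 0.904% held TCCCNNGGGA and 13.7% held CCCNNGGG. Of the 28 windows reached by members, 2 (7.14%, 95% interval 0.877 to 23.5%) held the full palindrome and 9 (32.1%, 15.9 to 52.4%) the core. Windows reached by CTD-ind sites of the same kind of place held the palindrome in 13 of 50 (26%, 14.6 to 40.3%) and the core in 34 of 50 (68%, 53.3 to 80.5%). These shares are over whole windows, not over the bases shared with a site, and at Tor1aip2 the same member reached 2 windows. For the core, the intervals of the windows of members and of CTD-ind sites came close without overlap (52.4 and 53.3%). They treat windows as independent, though 1 site can reach 2 of them, so this narrow gap was not read as a difference. For the full palindrome the intervals overlapped, so no difference could be read there either. A window without a match says only that these letters were not in it. Intervals here and below are exact 95% intervals and cover counting error only.

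The rule of place kept 55.4% of YmA-ind sites (53.9 to 57.0%). Of the 4055, 2660 lay inside a gene and 412 of these were under 1000 bp from a gene end. The 1395 outside genes comprised 208 near an end and 1187 farther away. By the same rule of place, 43.6% of CTD-ind sites (1113 of 2550) and 58.9% of YmA-dep sites (524 of 889) lay in the interior. The members nearest the limit were at Gm5431 (1004 bp from an end), Gpam and Tnni2 (1005 bp each). Just outside it were Qrfp and Dpy19l3 (998 bp each) and Gm39392 (997 bp).

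**Figure D1:**
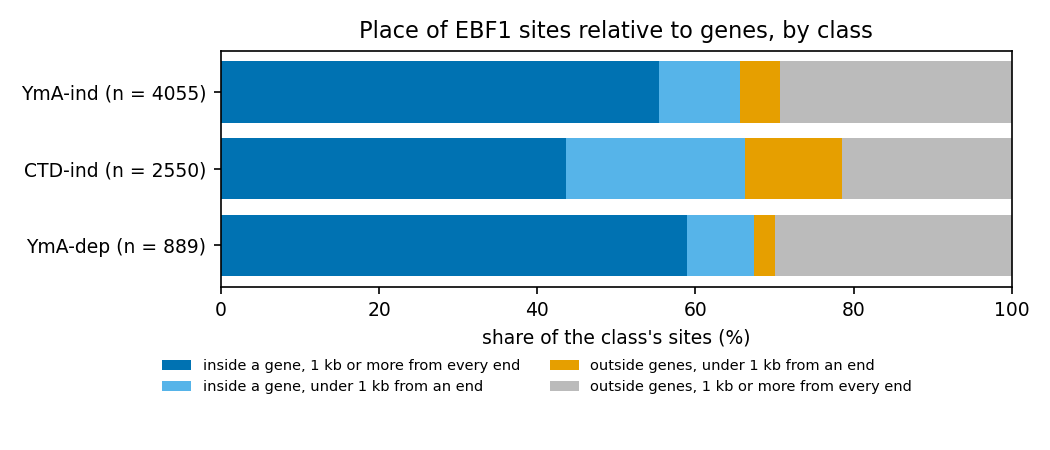
Share of the sites of each class (x axis, %) by place: inside or outside genes, and under or over 1 kb from a gene end. The dark blue part of the top bar, 55.4% of 4055 YmA-ind sites, is the set described here.

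Sites were about 2-fold denser in gene interiors than between genes in each class, so the members shared this with the other classes. The interior came to 1142 Mb, the space between genes that is 1000 bp or more from any end to 1266 Mb. YmA-ind sites stood at 1.97 per Mb of interior (1.89 to 2.05) and at 0.938 per Mb between genes (0.885 to 0.992), a ratio of 2.10 (1.96 to 2.25). The ratio was 2.25 (2.03 to 2.50) for CTD-ind and 2.18 (1.88 to 2.54) for YmA-dep sites, and the 3 intervals overlapped. The rule itself used the place inside genes, so the density of the members is a description. Both the interior and the space between genes include unsequenced stretches, which were not removed, so the ratios depend on how these are shared out.

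Most hosts were protein-coding genes. The 2248 members lay in 1663 host genes, and a site inside several genes was counted once, for the shortest protein-coding one. Protein-coding hosts numbered 1431 and held 1974 members (87.8%). Another 241 members (10.7%) lay in 215 long non-coding RNA genes and in no protein-coding gene. Apart from the receptor loci, the largest counts among hosts that are not protein-coding were 3 members in 5330413P13Rik, a lncRNA gene of 27.7 kb on chromosome 2, and 3 in the transcribed pseudogene Gm29719 on chromosome 17. Of the members, 2128 lay inside 1 gene only and 24 lay in overlapping protein-coding genes. Antigen receptor loci contributed 21 members: 9 in Igk, 7 in Igh, 2 each in Tra and Trb and 1 in Igl. RefSeq lists whole receptor arrays as genes, Igk and Igh with 3171 and 2751 kb. Igl, Tcrb and Tcrd span 234, 667 and 213 kb. Such an array was the host gene of 19 members, and for these the host is a segment array and not a transcription unit.

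Host genes were long. The median protein-coding host spanned 62.0 kb (quartiles 29.2 and 131 kb), against 17.4 kb (5.88 and 45.1 kb) over all 21521 protein-coding genes. A longer gene offers more interior that can hold a site. Hosts of CTD-ind sites (median 58.9 kb, 813 genes) and of YmA-dep sites (79.9 kb, 400 genes) were long as well. Of the 18971 protein-coding genes with any interior, 7.54% held a member. That share was 1.01% of genes under 10 kb, 4.94% at 10 to 30 kb, 11.6% at 30 to 100 kb, 19.9% at 100 to 300 kb and 19.1% above 300 kb. The share was higher in each longer bin up to 300 kb and no higher above it.

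Per Mb of interior the order was different, with the fewest members in the longest genes. Density was 2.99 members per Mb (2.24 to 3.91) in genes under 10 kb and 3.50 (3.15 to 3.89) at 10 to 30 kb. It was 3.02 (2.81 to 3.24) at 30 to 100 kb and 2.14 (1.98 to 2.32) at 100 to 300 kb. Above 300 kb it was 0.626 (0.541 to 0.721), with 193 members in 308 Mb. The densest bin thus stood 5.60 times (4.68 to 6.70) above the sparsest. The 3 bins up to 100 kb had overlapping intervals. CTD-ind sites were sparser in each longer bin, with intervals apart between neighbouring bins, from 3.27 per Mb (2.49 to 4.23) under 10 kb to 0.234 (0.183 to 0.294) above 300 kb. In genes under 10 kb the members and the CTD-ind sites were equally dense within their intervals, and in genes of 30 to 100 kb members were at 3.02 and CTD-ind sites at 1.36 per Mb (1.22 to 1.51). YmA-dep sites stood between 0.195 and 0.679 per Mb.

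**Figure D2:**
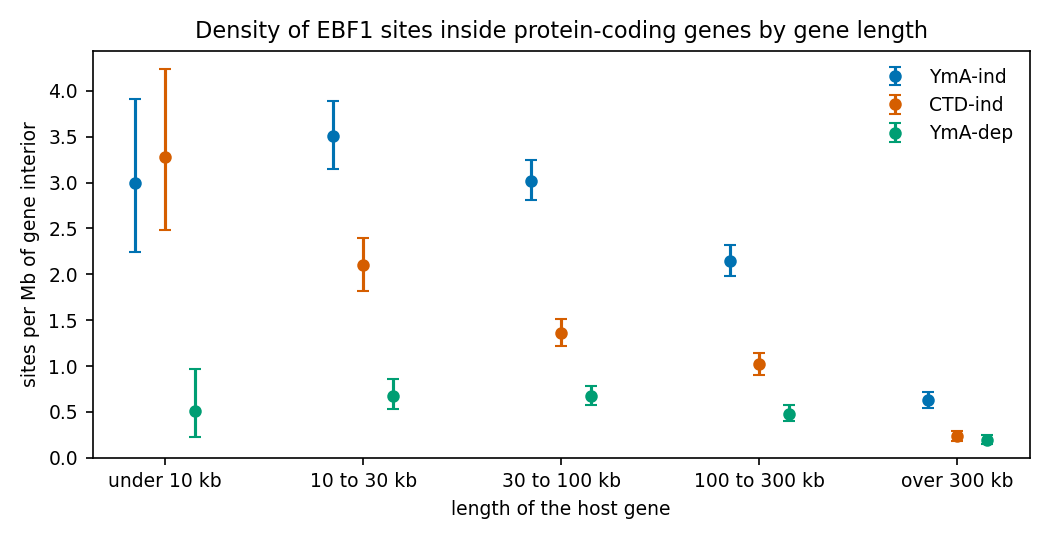
Sites per Mb of gene interior (y axis) in protein-coding hosts of 5 length bins (x axis) for the 3 classes, with exact 95% Poisson intervals. Members (blue) stay near 3 per Mb up to 100 kb and are at 0.626 above 300 kb.

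The ends of the length range show both sides. Among the longest hosts were Dlg2 (1973 kb), which encodes a synaptic scaffold protein, Fhit (1612 kb), a tumour suppressor gene at a fragile site, and Pde4d (1302 kb), the gene of a cAMP phosphodiesterase. Each held 1 member. Auts2 (1106 kb) held 1 member beside 3 CTD-ind and 2 YmA-dep sites. The shortest hosts were Saa2 (2.48 kb), Tnni2 (2.60 kb), Lamtor4 (3.91 kb), Neurod2 (4.23 kb) and Castor1 (4.24 kb), with 1 member each and no other EBF1 site.

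Along the gene, members were somewhat more frequent at the start and less frequent at the far end than even placement gives. The direction of transcription was known for the hosts of 1553 members in protein-coding genes. Each gene, less 1 kb at either end, was cut into 10 equal segments from start to far end. Segment 1 held 12.6% of members (11.0 to 14.4%) and segment 10 held 7.92% (6.63 to 9.38%). Segments 1 and 10 made up 9.92 and 9.91% of the interior, so both intervals exclude the share of even placement. The segments between held 8.37 to 10.6%, and each made up close to 10% of the interior. Among them segment 4, away from both ends, also lay narrowly below even placement, with 8.37% (7.04 to 9.86%) against 10.0% of the interior. The intervals of the 10 segments make no allowance for their number or for members that lie close together. Segments 1 to 5 together held 51.5% (49.0 to 54.0%). Of 778 CTD-ind sites counted the same way, 19.7% (16.9 to 22.6%) lay in segment 1, above the interval of the members. YmA-dep sites had 11.2% (8.07 to 14.96%) there, an interval that overlaps that of the members. Members lay a median of 30.1 kb from the start of the gene (quartiles 9.89 and 76.4 kb) and CTD-ind sites 19.0 kb (4.99 and 62.8 kb).

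Members grew sparser with distance from the start over all genes with a known start, but not within those of 100 to 300 kb, the length bin examined by distance. Over all of them, density was 3.97 members per Mb (3.45 to 4.55) at 1 to 5 kb from the start, 2.61 (2.28 to 2.98) at 10 to 20 kb and 1.03 (0.913 to 1.15) beyond 100 kb. At 1 to 5 kb from the far end it was 2.49 (2.09 to 2.96), below the interval at the same distance from the start. Within genes of 100 to 300 kb, which held 473 of these members, density was 2.39 per Mb (1.27 to 4.08) at 1 to 5 kb, 2.09 (1.40 to 3.002) at 10 to 20 kb and 2.08 (1.78 to 2.42) beyond 100 kb. All 6 distance bins there had overlapping intervals. CTD-ind sites in the same genes stood at 5.14 per Mb (3.41 to 7.43) at 1 to 5 kb and between 0.721 and 1.15 in the other bins, so they were densest in the first 5 kb. By gene length, segment 1 held 10.9% of members (3.62 to 23.6%) in genes under 10 kb, 15% (11.0 to 19.7%) at 10 to 30 kb, 12.96% at 30 to 100 kb, 11.8% at 100 to 300 kb and 9.87% (5.63 to 15.8%) above 300 kb. Segment 10 held 4.35% (0.531 to 14.8%), 7.5%, 6.31% (4.51 to 8.56%), 8.67% and 13.8% (8.76 to 20.3%) in the same bins. The intervals of segment 1 overlapped in all 5 bins, and for segment 10 those at 30 to 100 kb and above 300 kb did not.

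**Figure D3:**
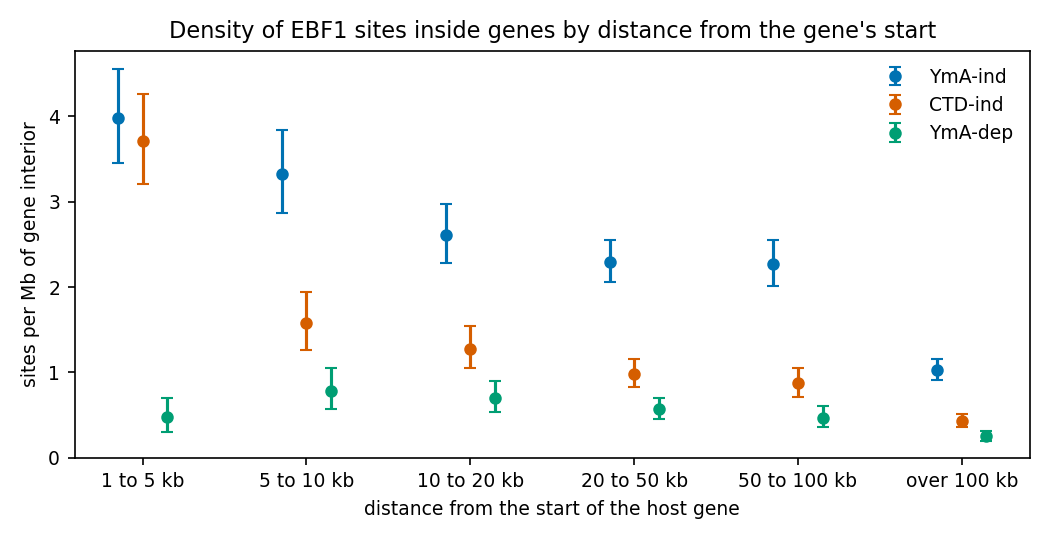
Sites per Mb of gene interior (y axis) by distance from the start of the host gene (x axis) for the 3 classes, over protein-coding hosts with a known start, with exact 95% Poisson intervals. CTD-ind sites (orange) go from 3.71 to 1.57 per Mb past 5 kb, while members (blue) go from 3.97 to 3.33.

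A few members sat near annotated starts inside genes. The rule kept sites away from the ends of a gene but not from further starts within it. Of 2195 members on chromosomes with such windows, 72 (3.28%, 2.58 to 4.11%) were centred within 1000 bp of an annotated start, where 0.832% of the interior lies. Starts were counted at any depth, and some lay close to the gene's own end, as at Pds5b (0.114 kb inside) and Mybl2 (0.308 kb). The share was 9.12% (7.48 to 11.0%) of CTD-ind and 1.37% (0.554 to 2.81%) of YmA-dep sites in the interior. The interval of the members lay below that of CTD-ind sites and overlapped that of YmA-dep sites. The closest members were at Tor1aip2 (6 bp), Ggta1 (9 bp), Spn (33 bp) and Myadm (34 bp). At Axin2, which encodes a scaffold of the beta-catenin destruction complex, a member on chromosome 11 (108920244 to 108920543) was centred 44 bp from a start 2.52 kb inside the gene. At Uhrf1, the gene of a factor that maintains DNA methylation, the distance was 60 bp and the start lay 0.976 kb inside.

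Among the hosts, 384 held several members. Of the 1663 hosts, 1279 held 1 member, 267 held 2 and 72 held 3. Those with 2 or more held 969 members, 43.1% of the set. Over protein-coding genes with an interior, 1.88% (356 genes) held 2 or more. These were longer, with a median of 94.9 kb for hosts of 2 members and 136 kb for hosts of 3 or more, against 51.2 kb for hosts of 1. Between neighbouring members of one host the median gap was 15.8 kb (quartiles 4.94 and 44.6 kb, 585 gaps). A gap under 1000 bp occurred 38 times (6.50%), and the smallest was 377 bp.

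The 20 protein-coding genes with the most members spanned 20.2 to 490 kb and held 111 members, 4.94% of the set. Gene spans below are on GRCm38, and distances are from the start of the gene to the centre of the site. Arhgef3, which encodes a guanine nucleotide exchange factor, led with 8 (chr14:27114461-27403916). They lay 101, 108, 108, 166, 166, 237, 251 and 283 kb from the start of its 289 kb, so the first 100 kb of the gene had none. Cmip, the gene of an adaptor first described in T cells, held 7 members between 1.78 and 132 kb of its 204 kb (chr8:117257019-117461506). Prkca, which encodes protein kinase C alpha, also held 7, between 75.3 and 230 kb of its 411 kb (chr11:107933387-108343888). In all 3 genes the smallest gap was under 0.6 kb, 0.395 kb at Arhgef3, 0.564 kb at Cmip and 0.505 kb at Prkca.

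Genes with 6 members had very different densities. Cyth1, the gene of cytohesin-1, an exchange factor for Arf GTPases, had 7.11 members per 100 kb over 84.4 kb, from 1.70 to 51.4 kb of the start (chr11:118164170-118248616). Pde2a, which encodes a phosphodiesterase for cAMP and cGMP, had 6.58 over 91.1 kb (chr7:101421691-101512829), and Shb, the gene of an SH2-domain adaptor, had 5.58 over 108 kb (chr4:45423276-45530828). Arid1b, the gene of a subunit of the BAF remodelling complex whose ATPase is BRG1, had 1.70 per 100 kb over 353 kb, at 10.6, 53.2, 90.1, 178, 204 and 208 kb (chr17:4994297-5347656). Msi2, the gene of an RNA-binding protein of stem cells, had 1.58 over 379 kb.

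Of genes with 5 members, Elovl5, which encodes a fatty acid elongase, had them within 25.5 kb, from 12.8 to 38.3 kb of the start (chr9:77917365-77984519). Stk10, the gene of a lymphocyte kinase, had all 5 between 5.25 and 38.2 kb of its 91.3 kb. Zmiz1, a transcriptional coactivator gene, had 5 among 11 EBF1 sites and Hivep3, a zinc finger gene, 5 among 11. Galnt2, Xxylt1, Lrch1, Sorcs2, Zmat4, Snx29 and Prkce complete the genes with 5. Of the 24 protein-coding genes with 4 members, the 1 with the most per 100 kb of gene completes the 20 by the rule for ties. It was Grk2, which encodes a kinase of G-protein-coupled receptors, with its members within 6.46 kb of a gene of 20.2 kb (chr19:4285999-4306222), or 19.8 per 100 kb.

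**Figure D4:**
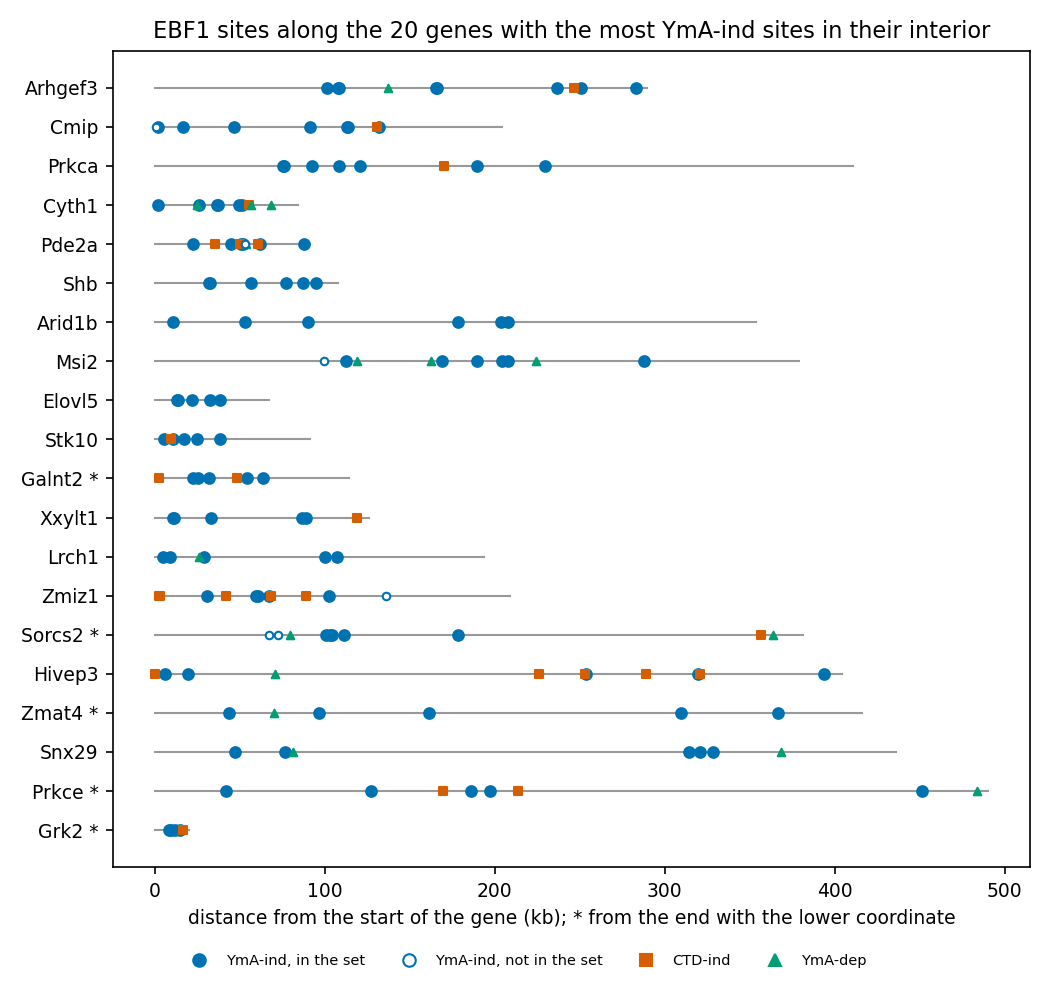
Each line is 1 of the 20 genes with the most members, drawn to scale from its start, or from its lower coordinate where the strand was not known (x axis, kb), and symbols mark the EBF1 sites inside it by class. Members are filled blue circles, and Shb, Arid1b and Elovl5 hold no other EBF1 site.

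Other classes shared many of these genes. Of the 20, 13 also held a CTD-ind site and 10 a YmA-dep site, while 3 (Shb, Arid1b and Elovl5) held members alone. Over all 1431 protein-coding hosts, 66.8% (64.3 to 69.2%) had no EBF1 site inside the gene other than members. A CTD-ind site lay inside 332 hosts (23.2%, 21.0 to 25.5%), a YmA-dep site inside 166 (11.6%, 9.99 to 13.4%) and both inside 65. Another YmA-ind site under 1000 bp from a gene end lay inside 71.

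Within genes of like length above 10 kb, the share with a site of another class was larger among hosts of a member than among genes without one. At 100 to 300 kb, 30.2% of 371 hosts (25.6 to 35.1%) had a CTD-ind site in the interior, against 6.81% of 1497 other genes (5.59 to 8.21%). For YmA-dep sites these shares were 15.6% (12.1 to 19.7%) and 4.01% (3.07 to 5.13%). At 30 to 100 kb they were 18.03% against 4.23% for CTD-ind and 10.9% against 2.10% for YmA-dep sites. In the 4 bins above 10 kb the intervals of hosts and other genes were apart for both classes, and under 10 kb they overlapped. There YmA-dep sites lay in 0 of 52 hosts and in 9 of 5079 other genes (0.177%). All classes come from the same list and library, and no test between these shares was made.

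The nearest other EBF1 site lay a median of 22.7 kb from a member (quartiles 6.19 and 71.7 kb). It lay under 12500 bp away for 852 members (37.9%, 35.9 to 39.9%), against 41.2% (38.2 to 44.1%) of CTD-ind and 40.6% (36.4 to 44.99%) of YmA-dep sites in the interior. For those 852, the neighbour was YmA-ind in 58.9%, CTD-ind in 29.7% and YmA-dep in 11.4%. In the whole list these classes make up 54.1, 34.0 and 11.9%.

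Host genes were described by 15 lists of 443 genes, set beside the 7.54% of all protein-coding genes with an interior that held a member. Because the lists differ in gene length, the share that genes of the same length bins had is given as well. In 4 of the 15 lists that share lay below the interval of the list's own. These were the B-lineage transcription factors, the IL-7 receptor, JAK-STAT and PI3K list, the B-cell surface list and the protein kinase C list. The other classes lay in many of the same lists. CTD-ind sites had hosts in 4.29% of all protein-coding genes with an interior and YmA-dep sites in 2.11%. In each of the 15 lists the interval of CTD-ind hosts overlapped that of member hosts, and no list is called particular to the members. The lists were chosen with earlier results of these data known, so their shares are descriptions.

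**Figure D5:**
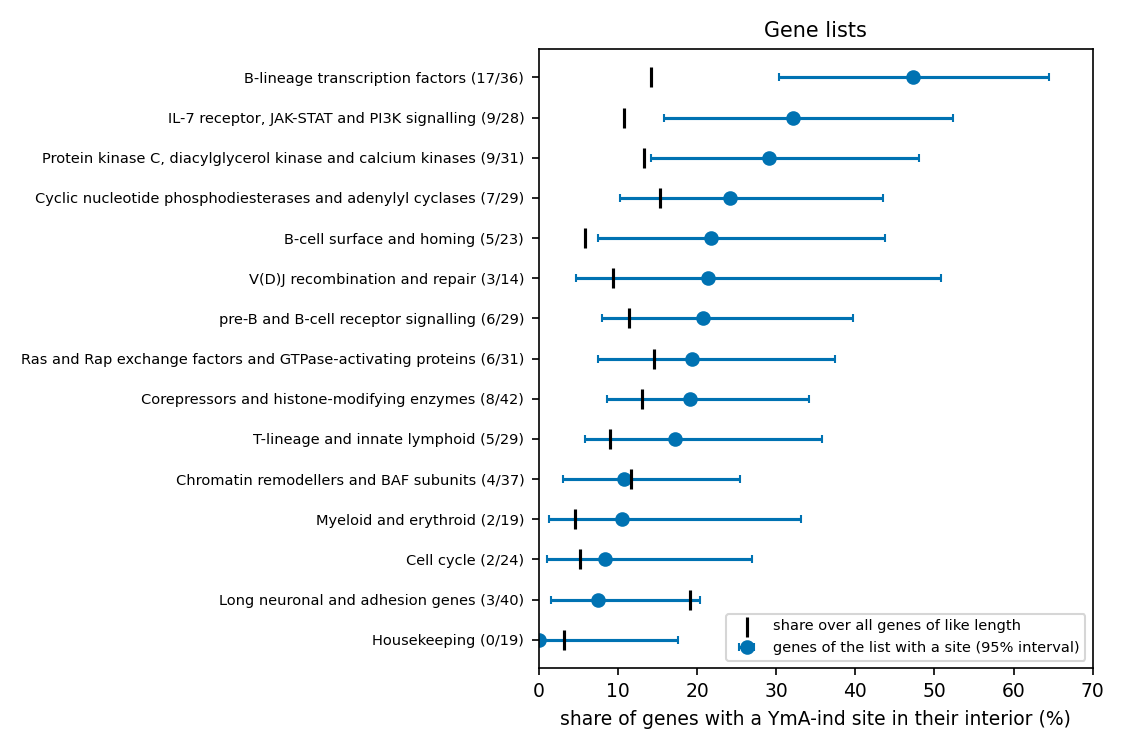
Share of the genes of each list that hold a member (x axis, %, blue points with exact 95% intervals, counts in brackets) beside the share over all genes of like length (black bars). The B-lineage transcription factors stand highest with 17 of 36.

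B-lineage transcription factor genes held a member in 17 of 36 cases (47.2%, 30.4 to 64.5%), against 14.2% over genes of like length, and 19 had none. CTD-ind sites lay in 15 of the 36 (41.7%, 25.5 to 59.2%) and YmA-dep sites in 4. The 17 hosts held 32 members in all. Zmiz1 led with its 5, beside 5 CTD-ind sites. Ikzf3, which encodes the Ikaros family factor Aiolos, had 4 of its 4 EBF1 sites in the set, spread over 58.1 kb of its 81.4 kb (chr11:98464610-98546031). Foxo1, a forkhead factor that drives recombination genes, had 3, at 14.7, 67.3 and 79.9 kb of its 81.8 kb (chr3:52268337-52350109). Ebf1, the gene disrupted in these Ebf1-/- cells, had 2, at 293 and 384 kb of 390 kb (chr11:44618100-45008096), beside 1 CTD-ind site. Cux1 had 2 beside 4 CTD-ind sites, and Ets1, the gene of an ETS factor, had 2 beside 1 YmA-dep site. Pax5, Pou2f1 and Runx1 had 2 each and Aff3, Bcl11a, Erg, Fli1, Foxp1, Lef1, Mef2d and Tcf3 had 1 each.

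Signalling genes of early B cells were hosts as well. In the IL-7 receptor, JAK-STAT and PI3K list 9 of 28 genes held a member (32.1%, 15.9 to 52.4%, against 10.8%), and 8 a CTD-ind site. Inpp5d, which encodes the lipid phosphatase SHIP1, had 3, at 6.25, 32.0 and 40.6 kb of its 100 kb (chr1:87620312-87720510). Pik3cd, the gene of the leukocyte PI3K catalytic subunit, had 3 within 10.7 kb. Akt2, the survival gene Bcl2l1 and Stat5b, the gene of the factor that IL-7 signals through, had 2 each. The pre-B and B-cell receptor list had 6 of 29 (20.7%, 7.99 to 39.7%, against 11.3%), and 8 held a CTD-ind site. There Vav2, an exchange factor gene, had 4, of which 2 were 1.35 kb apart, and Blk, Blnk, Cblb, Pik3ap1 and Plcg2 had 1 each.

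Recombination and surface genes held 4 and 5 members in all. V(D)J recombination and repair genes had 3 of 14 (21.4%, 4.66 to 50.8%, against 9.40%), with 2 members at Xrcc6, the Ku70 gene, and 1 each at Xrcc4 and Trp53bp1. B-cell surface genes had 5 of 23 (21.7%, 7.46 to 43.7%, against 5.83%), with 1 member each, Bst1, Fcer2a, Itgb7 and Spn among them. These are short genes, with a list median of 16.2 kb. Fcer2a encodes the low-affinity IgE receptor CD23 and Itgb7 an integrin subunit of gut homing.

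The protein kinase C, diacylglycerol kinase and calcium kinase list had 9 of 31 (29.0%, 14.2 to 48.0%, against 13.3%), and 8 held a CTD-ind site. Most of its 22 members were in protein kinase C genes, 7 at Prkca, 5 at Prkce and 3 at Prkch. Phosphodiesterases and adenylyl cyclases had 7 of 29 (24.1%, 10.3 to 43.5%, against 15.3%), led by Pde2a with 6 and Pde4a with 2. Ras and Rap regulators had 6 of 31 (19.4%, 7.45 to 37.5%, against 14.6%), led by Sipa1l1 with 4, and CTD-ind sites lay in 8.

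In both lists of chromatin genes the share over genes of like length lay inside the list's interval. Remodellers and BAF subunits had 4 of 37 (10.8%, 3.03 to 25.4%, against 11.6%), with 6 members at Arid1b and 1 each at Arid1a, Bcl7b and Smarca4, which encodes BRG1. Corepressors and histone-modifying enzymes had 8 of 42 (19.0%, 8.60 to 34.1%, against 13.1%). Hdac7, a deacetylase gene of lymphoid cells, had 2 members that were 0.413 kb apart.

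Genes listed here under other lineages were hosts too, though a place in a list does not make a gene specific to that lineage. T-lineage and innate lymphoid genes had 5 of 29 (17.2%, 5.85 to 35.8%, against 9.01%). Tcf7, which encodes the T-cell factor TCF-1, had 4 members within 6.59 kb of its 36.9 kb (chr11:52246527-52283383), and Notch1 had 2. Myeloid and erythroid genes had 2 of 19 (10.5%, 1.30 to 33.1%, against 4.61%), at Itgam and Tfrc. Both shares had intervals that overlap those of the pre-B receptor, V(D)J and B-cell surface lists. Cell cycle genes had 2 of 24 (8.33%, 1.03 to 27.0%, against 5.22%), with 2 members at Ccnd3 and 1 at Cdk6. Housekeeping genes had 0 of 19 (exact interval up to 17.6%), against 3.16% over genes of like length. Long neuronal and adhesion genes, with a median of 1144 kb, had 3 of 40 (7.5%, 1.57 to 20.4%), Dlg2 and Grm5 among them, against 19.1% over all genes above 300 kb.

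Members were spread over all 20 chromosomes at uneven density. Chromosomes 19, 11 and 17 had the most per Mb of interior, 3.23 (2.61 to 3.94), 3.18 (2.74 to 3.67) and 3.06 (2.54 to 3.64), and X had the fewest, 0.345 (0.201 to 0.552) with 17 members. The interval of X lay below that of each autosome. Among autosomes, chromosome 3 was lowest with 1.18 (0.920 to 1.49). Members made up 22.1% of the EBF1 sites on X and 26.8 to 37.6% of those on each autosome.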

How the data were processed

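The input was 1 deposited list of EBF1 sites from the EBF1 ChIP with EBF1 wt; the other 4 libraries were not analysed here. The deposited values are site positions in bp (BED, start counted from 0, here 1-based) and a text class; the list has no other unit, and per the file headers the class is a deepTools group. The tools named in the submitters' processing notes are deepTools, Bowtie2 and SAMtools, the build GRCm38 (mm10). Peak calling and class assignment were not given in the sources used here.

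Genes came from a RefSeq table of GRCm38.p6 (49209 on chromosomes 1 to 19 and X after 345 of scaffolds were left out; 21521 protein-coding). Starts, strands and sequences came from RefSeq windows, which gave a strand for 17274 protein-coding genes and none on chromosome 18. Each site was placed by its centre; its host is the shortest protein-coding gene around it, or failing that the shortest gene of another kind. Interior was measured on a grid of 100 bp. The share for genes of like length weights the share of each of 5 length bins by a list's genes. All 444 list entries matched by symbol or synonym. Motifs were exact matches.

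No test was run: there is 1 library, and sites and genes are not replicates. Shares have exact Clopper-Pearson and densities exact Poisson 95% intervals. Placement was tested on simulated sites of known position. Read depth is unknown. Genes named are the 20 with the most members, up to 6 per list, the 5 longest and shortest hosts and the 3 sites either side of the limit; the remaining B-lineage factors, the hosts at internal starts and the non-coding hosts were named after their values were seen. A few genes and lists under this rule are not reported here. The members and lists were chosen with earlier results of these data known. Python 3.11.15, numpy 2.4.6, pandas 2.3.3, scipy 1.17.1 and matplotlib 3.10.9 were used.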

Additional observations from a re-analysis of the deposited data

How the results depend on the processing

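Of 95 alternative values for 26 results, 78 stayed within their interval or within 1.5 times of their count and 17 moved. Counts of single gene lists made up 60 of those that stayed, and shares of the other classes 8 of those that moved. For the remaining results 18 values stayed and 9 moved. The members numbered 2400, 1995 and 1519 with limits of 500, 2000 and 5000 bp, 2041 with protein-coding genes only and 2227 without the receptor loci. The share of YmA-ind sites in the interior became 59.2, 49.2 and 37.5% with those limits and 50.3% with protein-coding genes only; a longer limit leaves less interior by construction. The shares of the other classes moved likewise, and CTD-ind stayed the lowest of the 3. The share in segment 1 of 10, 12.6%, became 14.5% when genes without a known start were measured from the nearer end, which by construction favours it; the share within 10 kb of the start was 25.5%. The densest length bin exceeded the sparsest by 5.60 times, but by 2.06 times with quartiles of gene length, whose top bin starts at 45.1 kb and mixes the genes above 300 kb with shorter ones. With 1 site per run of neighbours (gaps under 12500 bp), genes with 2 or more members fell from 356 to 221 and the median distance to the nearest site became 52.9 kb, both by construction. Counts of list genes stayed within 1.5 times in each list under each alternative run. Peak strength was not run, since the list gives none. No paired analysis was possible because 1 library was used. With the depth unknown, absence of a site does not show that EBF1 was absent.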
